A study of Danio rerio with 18 samples.

Results

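The genes described here are 10 zebrafish genes of red cell formation: the regulators gata1a, hemgn and epor, the iron carriers tfr1a and slc25a37, and the heme synthesis enzymes alas2, alad, urod, cpox and fech. They were chosen by name, and each name found 1 row among the 32520 genes of the 4 deposited count tables, with epor, urod, fech, cpox, alad and slc25a37 written there in capitals. All 10 passed the filter on low counts in every comparison. The 18 libraries come from pooled fish of the AB strain and form 6 groups of 3. Intestines were dissected at 5 days after fertilization and kidneys, a site of blood formation, at 7 days. Each tissue has a group of conventionally raised wild type fish (CV), a group of wild type fish raised germ-free (GF), and a group of chd8-/- fish, whose allele is not named in the labels.

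Per the labels' protocols, CV and GF embryos were split from the same eggs, spawned in autoclaved system water. GF eggs were then kept in antibiotic medium, rinsed with polyvinylpyrrolidone, bathed in sodium hypochlorite and raised in sterile medium in flasks. The chd8-/- eggs were spawned in circulating system water, kept in ordinary embryo medium and entered GEO as a separate block of samples. Genotype, spawning water and sample block therefore cannot be told apart, and neither can tissue and age. Nor can the absence of microbes be told apart from the egg treatment described for GF fish. Pooled embryos numbered 30 in wild type intestine groups, 40 in the mutant intestine group, 50 in wild type kidney groups and about 70 in the mutant kidney group. The labels do not state whether these are numbers per library, or whether replicates were separate clutches. The p-values therefore measure the spread between these libraries only, which may be technical.

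Heme is built in all cells by a chain of enzymes that starts and ends in mitochondria. Red cell precursors run this chain at a high rate to fill their globins, and use their own form of its opening enzyme, alas2, where most other cells use alas1. GATA1 switches on globin and heme genes, the erythropoietin receptor keeps the precursors alive and dividing, and transferrin receptor and mitoferrin bring the iron that ferrochelatase places into the ring at the last step. The zebrafish kidney is a site of blood formation, though not the only one in larvae, while the gut holds red cells mainly as circulating blood.

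Intestine libraries had 26864797 to 36624972 counts and kidney libraries 27291597 to 31268453. The 10 genes held between 14 counts (gata1a and epor) and 1790 counts (alas2) in a library. Counting error therefore weighs most on gata1a and epor. Levels are given in CPM, that is, counts relative to a library size that was adjusted by TMM over the 18 libraries. They compare a gene between libraries, not one gene with another, because gene length was not used. The library labelled GF kidney replicate 2 held 33.5 CPM of CHD8, within the 30.2 to 39.1 CPM of the chd8-/- kidneys. All other wild type kidneys stood at 46.0 to 54.1 CPM, so the label of that library is uncertain. Between chd8-/- and CV kidney the log2 difference of CHD8 was -0.55 and did not pass (edgeR adjusted p = 0.468). In the intestine CHD8 was at 31.7 to 41.3 CPM in mutants and 51.4 to 62.7 CPM in wild types, and it fell by 0.60 on the log2 scale (edgeR adjusted p = 0.0292). CV kidney replicate 1 held 281 CPM of 4 summed neutrophil and macrophage genes against 83.6 to 129 CPM in the other kidneys, and GF intestine replicate 3 held 166 CPM of 4 brain and retina genes against 14.4 to 37.9 CPM in the other intestines. The dissected pieces were mixed: 4 enterocyte genes summed to 4861 to 7184 CPM in the intestine and 86.1 to 447 CPM in the kidney, yet 6 liver genes summed to 9639 to 15900 CPM in the intestine and 2717 to 7815 CPM in the kidney, 3 muscle genes summed to 35401 to 76913 CPM in the kidney, and of the kidney genes WT1 and NPHS1 were higher in the kidney while CDH17 and CUBN were higher in the intestine.

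**Figure D1:**
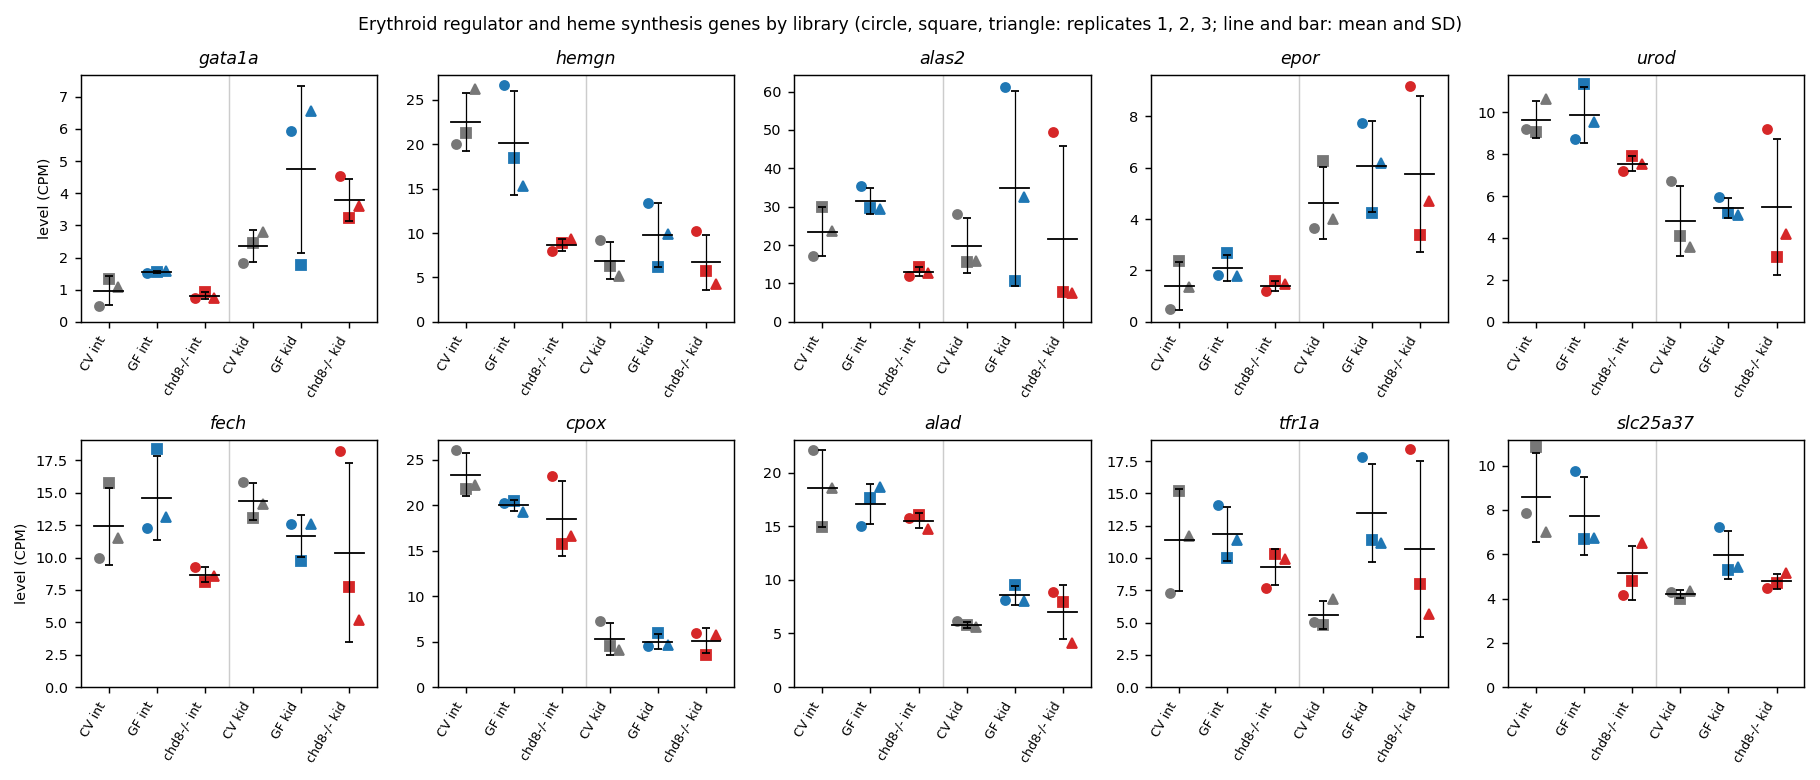
Level of each of the 10 genes in CPM (linear axes starting at 0) in the 3 libraries of each group, with the group mean and SD, cut at 0 where the SD exceeds the mean. In the chd8-/- intestine hemgn lay at 7.94 to 9.27 CPM, below all other intestines, while in the kidney alas2 ranged from 7.49 to 61.3 CPM across libraries.

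Ordered by group mean, the highest group was GF kidney for gata1a, alas2, epor and tfr1a. It was CV intestine for hemgn, cpox, alad and slc25a37, and GF intestine for urod and fech. The highest single library of epor (9.19 CPM) and of tfr1a (18.4 CPM) was chd8-/- kidney replicate 1. From the highest to the lowest group mean the ratio ran from 1.68 for fech to 5.83 for gata1a. Most neighbours in these orders overlapped, but for gata1a 3 neighbouring pairs were apart and 2 overlapped. Its order began with GF kidney (4.75 ± 2.60 CPM), chd8-/- kidney (3.79 ± 0.660) and CV kidney (2.36 ± 0.485). Then came GF intestine (1.55 ± 0.0186), CV intestine (0.968 ± 0.442) and chd8-/- intestine (0.814 ± 0.108, SD, n = 3 each). The GF and chd8-/- kidneys overlapped, as did the CV and chd8-/- intestines. For fech every pair of neighbours overlapped. The tissues did not overlap over all 18 libraries for gata1a, epor, alad and cpox. The share of all genes without such overlap was not computed, so these genes are not shown to be unusual. Tissue differences were common: between the CV tissues 18.4% of all genes were called as higher in the kidney and 21.3% as lower. For gata1a the intestine held 0.481 to 1.57 CPM and the kidney 1.77 to 6.55 CPM. For epor the ranges were 0.481 to 2.67 and 3.38 to 9.19 CPM. They were 14.8 to 22.2 and 4.13 to 9.56 CPM for alad, and 15.7 to 26.1 and 3.51 to 7.28 CPM for cpox. By contrast alas2 spanned 12.1 to 35.5 CPM in the intestine and 7.49 to 61.3 CPM in the kidney.

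Between the tissues of CV fish, 8 of the 10 genes passed. The kidney held more gata1a and epor and less hemgn, urod, cpox, alad, tfr1a and slc25a37 than the intestine, and alas2 and fech did not pass. In bulk tissue, more cells of a type and more RNA per cell cannot be told apart. By edgeR's quasi-likelihood test with Benjamini-Hochberg adjustment over all genes (called at an adjusted p under 0.05, on 1 fit of all 18 libraries), 2 of 10 genes were higher and 6 were lower in the kidney. Of all 22826 genes tested, 18.4% were higher and 21.3% were lower.

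The zinc finger factor gata1a, which zebrafish need to make red cells, stood at 0.481, 1.34 and 1.08 CPM in CV intestine and at 1.83, 2.46 and 2.78 CPM in CV kidney, replicates 1 to 3. Every kidney was above every intestine, by a log2 difference of 1.28 (SE 0.43, edgeR adjusted p = 0.0256). The erythropoietin receptor gene epor stood at 0.481, 2.35 and 1.36 CPM in the intestine and at 3.66, 6.24 and 4.02 CPM in the kidney, a log2 difference of 1.73 (SE 0.46, edgeR adjusted p = 0.0063). Its groups did not overlap either. For hemgn, a nuclear protein gene of blood cells that GATA1 activates, the direction was the other way. It stood at 20.0, 21.3 and 26.2 CPM in the intestine and at 9.25, 6.24 and 5.19 CPM in the kidney, and the log2 difference was -1.71 (SE 0.33, edgeR adjusted p = 0.000419).

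Among the enzymes, cpox, which oxidises coproporphyrinogen in mitochondria, differed most. It stood at 26.1, 21.7 and 22.2 CPM in CV intestine and at 7.28, 4.48 and 4.05 CPM in CV kidney, 4.42 times lower (log2 difference -2.14, SE 0.25). The cytosolic enzyme gene alad, which joins aminolevulinate into the first pyrrole, stood at 22.2, 15.0 and 18.5 CPM against 6.13, 5.80 and 5.57 CPM (log2 difference -1.67, SE 0.23). In both genes every kidney was far below every intestine. The decarboxylase gene urod was lower by less, at -1.01 on the log2 scale (SE 0.31, edgeR adjusted p = 0.016), with 9.64 ± 0.878 CPM in the intestine and 4.80 ± 1.68 CPM in the kidney (SD, n = 3 each). Neither alas2 nor fech passed. For alas2, which makes aminolevulinate in red cell mitochondria, the log2 difference was -0.25 (SE 0.64, edgeR adjusted p = 0.79), and for fech, which inserts iron, it was 0.21 (SE 0.32, edgeR adjusted p = 0.641). The SE of alas2 was the largest of the 10, so a difference as large as that of urod would not have passed.

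Both iron genes were lower in the kidney. The transferrin receptor gene tfr1a, mutated in anaemic chianti zebrafish, stood at 7.32, 15.2 and 11.7 CPM in CV intestine and 5.01, 4.85 and 6.84 CPM in CV kidney (log2 difference -1.03, SE 0.36, edgeR adjusted p = 0.0296). The mitoferrin gene slc25a37, whose product carries iron into mitochondria, stood at 7.86, 10.8 and 7.01 CPM against 4.30, 4.00 and 4.33 CPM (log2 difference -1.02, SE 0.24, edgeR adjusted p = 0.00225). The CV kidney libraries of slc25a37 were nearly equal, and below every CV intestine. With 1 library left out in turn, 5 to 8 of the 10 genes were called. The calls of gata1a, urod and tfr1a were the ones lost, all 3 of them without CV intestine replicate 3 or CV kidney replicate 2. Without CV kidney replicate 1, GF kidney replicate 2 and GF intestine replicate 3 together, 7 were called and tfr1a was not (-0.96, edgeR adjusted p = 0.0988), and with library size alone as the scale gata1a was not (1.12, edgeR adjusted p = 0.0615).

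Other genes of the pathway were counted in lists that, like the 10 genes, were chosen with earlier results of these data known. Of 16 other heme synthesis and transport genes, 1 was higher in CV kidney, 11 were lower and 4 did not pass, with a median log2 difference of -1.18 where that of all genes was 0.01. PPOX, the enzyme between CPOX and FECH, stood at 19.3 CPM in the intestine and 2.42 CPM in the kidney (log2 difference -2.99, SE 0.27), and the mitochondrial transporter gene ABCB10 had a log2 difference of -1.63 (SE 0.24). ALAS1, the opening enzyme of most cells, named here after its values were seen, stood at 997 CPM in the intestine and 383 CPM in the kidney (-1.38, SE 0.33, edgeR adjusted p = 0.0026). The gene that was higher was SLC25A28, the mitoferrin of other tissues, at 67.7 CPM in the intestine and 179 CPM in the kidney (1.41, SE 0.20). Of 20 other erythroid transcription and signalling genes, 6 were higher, none was lower and 14 did not pass, with a median of 0.37. Among the 6, the red cell factor gene klf17 had a log2 difference of 2.41, IKZF1 1.46, GFI1B 1.57 and SOX6 0.99. The 21 iron genes split into 2 higher and 7 lower (median -0.24), led by ACO1, the cytosolic iron sensor (-2.44), the iron exporter SLC40A1 (-1.94), the plasma iron carrier tfa (-2.15) and HJV, a coreceptor of hepcidin control (2.01). Of 10 red cell membrane and enzyme genes, DMTN (1.04) and SPTB (0.92) were higher and TMOD1 was lower (-1.02). None of the 5 globin genes tested passed in either direction, although all 5 had a positive log2 difference (median 0.59). All 4 neutrophil and macrophage genes were higher in CV kidney, and the summed level of the 8 matched globin genes was 158 to 200 CPM in CV intestine and 185 to 409 CPM in CV kidney. The part of these cells in the differences of the 10 genes was not tested.

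**Figure D2:**
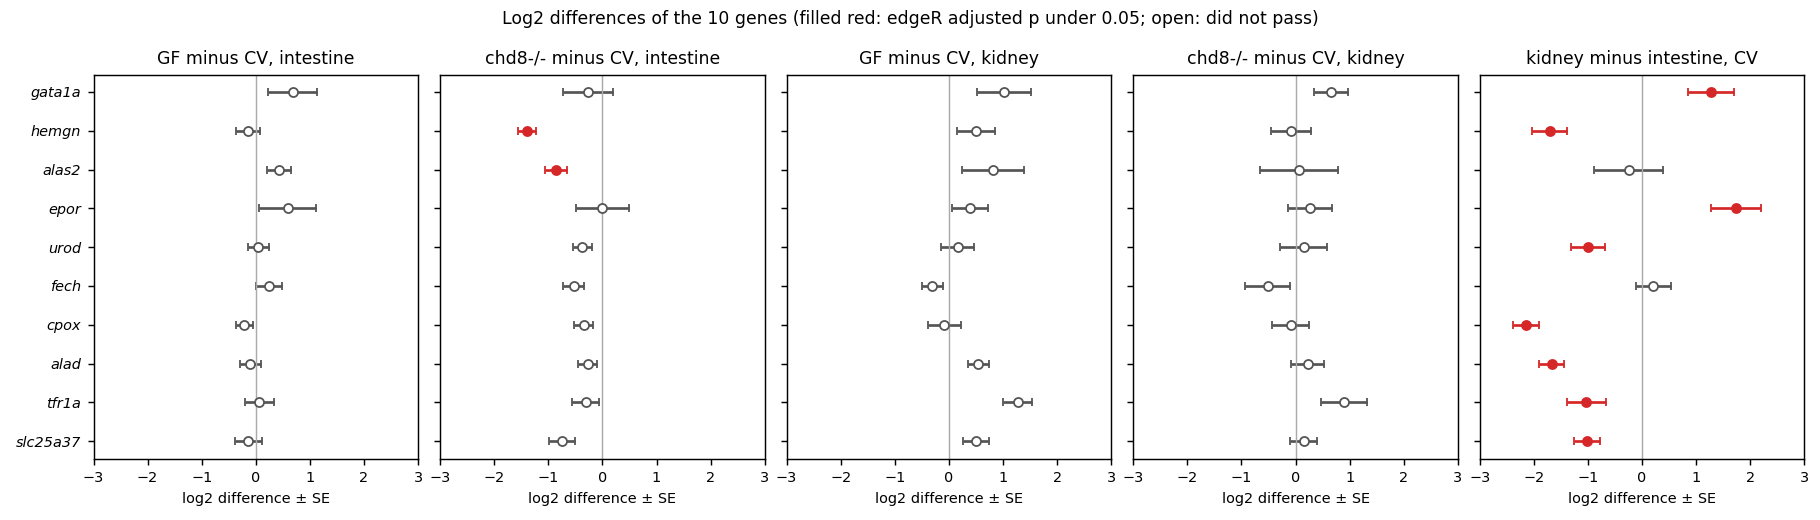
Log2 difference with its SE for each of the 10 genes in 5 comparisons, filled red where the edgeR adjusted p was under 0.05 and open where it was not. In the chd8-/- intestine hemgn (-1.39) and alas2 (-0.86) were called, no gene was called in the GF comparisons or in the chd8-/- kidney, and 8 were called between the tissues of CV fish.

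The chd8-/- intestine was the group of mutant or germ-free fish in which edgeR called genes of the 10 with all libraries. The hemogen gene hemgn and the erythroid aminolevulinate synthase gene alas2 fell, and all 10 genes had a log2 difference below 0. The median was -0.36, and that of all genes was -0.01. Of all 20758 genes tested, 51.4% were below 0, 9.17% were called, 3.98% as higher and 5.19% as lower. The questions of this comparison and of the next ones, which share the CV libraries of a tissue, are how the transcriptomes of chd8-/- and of germ-free fish differ from those of CV fish.

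The level of hemgn was 7.94, 8.84 and 9.27 CPM in chd8-/- intestine, replicates 1 to 3, and 20.0, 21.3 and 26.2 CPM in CV intestine. The mutant values lay within a narrow band below every wild type intestine, since GF intestines held 26.7, 18.5 and 15.3 CPM. The gene fell 2.61 times, by 1.39 on the log2 scale (SE 0.17, edgeR adjusted p = 0.000699), and was called in each of the 6 fits without 1 library (edgeR adjusted p from 0.000531 to 0.00894). The level of alas2 was 12.1, 14.3 and 12.8 CPM in chd8-/- intestine and 17.1, 29.9 and 23.6 CPM in CV intestine. Again no mutant library reached a wild type one, but the CV libraries were spread widely. The gene fell 1.82 times, by 0.86 on the log2 scale (SE 0.20, edgeR adjusted p = 0.0243). This call held in 2 of the 6 fits without 1 library. It was lost without CV replicate 3 (-0.86, edgeR adjusted p = 0.0527), where the size did not move, and without chd8-/- replicate 1 (-0.80, 0.11), replicate 2 (-0.93, 0.0755) or replicate 3 (-0.84, 0.106), and the size was smallest without CV replicate 2 (-0.65, 0.0333).

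The remaining genes had smaller differences, and none passed in edgeR. The mitoferrin gene slc25a37 stood at 4.16, 4.78 and 6.52 CPM in chd8-/- intestine against 7.86, 10.8 and 7.01 CPM in CV, so the highest mutant library came close to the lowest CV library. Its log2 difference was -0.75 (SE 0.24, edgeR adjusted p = 0.0819), and it was called by DESeq2 (adjusted p = 0.0436), which called hemgn, alas2 and slc25a37 and 7.19% of all genes as lower. Ferrochelatase, fech, stood at 9.29, 8.14 and 8.56 CPM against 9.99, 15.7 and 11.5 CPM (log2 difference -0.53, SE 0.20, edgeR adjusted p = 0.125). For urod, 7.18, 7.93 and 7.54 CPM stood against 9.20, 9.07 and 10.7 CPM (log2 difference -0.37, SE 0.17, edgeR adjusted p = 0.213). With hemgn and alas2, these 3 make 5 of 10 genes in which every mutant library lay below every CV library, where 15.6% of all genes did so. The last 5 genes overlapped. Their log2 differences were -0.35 for cpox, -0.31 for tfr1a, -0.28 for alad, -0.27 for gata1a and -0.00 for epor, whose sign changes with the settings. Over the 10 genes, each mutant library ranked low among the 9 intestines, with a median rank of 8 for replicate 1, 7 for replicate 2 and 8 for replicate 3, where 1 is the highest.

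Some red cell genes outside the 10 also fell, beside the 5.19% of all genes that did. Of 5 globin genes tested, 3 fell and 2 did not pass, with a median log2 difference of -1.23. The embryonic alpha-type globin gene hbae1.1 went from 4.67 to 0.397 CPM (-3.55, SE 0.38), hbae1.2 from 7.28 to 3.09 CPM (-1.23, SE 0.21) and hbae3 from 161 to 87.9 CPM (-0.88, SE 0.16), with edgeR adjusted p of 0.000342, 0.0049 and 0.00715. These near-identical copies can share reads, so the values of single copies are uncertain. Of 10 red cell membrane and enzyme genes 2 fell and 8 did not pass (7 of the 10 negative): epb41b of the membrane skeleton (-1.09) and the red cell carbonic anhydrase gene cahz (-0.81). Among 16 other heme genes none passed (12 negative, median -0.20). Their summed level, mostly ALAS1, was nevertheless higher in the mutants (1626 to 1964 CPM) than in CV intestine (1196 to 1596 CPM). ALAS1, named here after its values were seen, had a log2 difference of 0.45 (SE 0.22, edgeR adjusted p = 0.237). Of 20 other erythroid transcription and signalling genes 1 passed, jak2a, the kinase that works with the erythropoietin receptor, which rose by 0.58 (log2). Of 20 iron genes tested 1 rose and 2 fell: STEAP3, the reductase that acts beside transferrin receptor, went from 0.656 to 3.57 CPM (2.44), hamp, the iron hormone hepcidin, from 7.49 to 0.672 CPM (-3.47), and the ferroxidase-like hephl1a changed by -0.83.

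The summed globin level, taken here as a rough stand-in for red cell RNA, was also lower in the mutant intestines. Mutant intestines held 84.2 to 105 CPM, CV intestines 158 to 200 CPM and GF intestines 236 to 272 CPM, without overlap between the 3 groups. It sums 8 of 14 globin names, of which hbae3 gives most of the level and hbaa1 and hbaa2 were at 0 in nearly every library. Per 100 CPM of globin, alas2 stood at 13.6 ± 1.24 CPM in chd8-/- and 13.6 ± 5.17 CPM in CV intestine (SD, n = 3 each). On the same scale hemgn stood at 9.06 ± 0.326 and 12.8 ± 2.51 CPM, and each mutant library remained below each CV library. The hemgn ratio was also low in GF intestine, at 8.18 ± 2.72 CPM (6.43 to 11.3), where it overlapped CV (10.0 to 14.9). A mean hemgn ratio below that of CV was therefore not particular to the mutant, but its parts differed. In GF intestine the globin sum was above CV, and hemgn itself overlapped CV (15.3 to 26.7 against 20.0 to 26.2 CPM). In the mutant both hemgn and the globin sum were below CV. By contrast cpox, at 19.8 ± 6.80 and 13.1 ± 0.545 CPM, alad, at 16.3 ± 2.31 and 10.4 ± 0.846 CPM, and urod, at 7.90 ± 0.684 and 5.47 ± 0.760 CPM, had every mutant library above every CV library. Without the division by globin all 3 had negative log2 differences. Per globin, then, 3 of the 10 genes were fully above CV, 1 was fully below and 6 overlapped. The share of all genes on this scale was not computed, so these counts are not a result about the 10 genes. The globin sums differed between the groups, so the division shifts every gene. A gene that falls less than the globins comes out higher per globin by arithmetic. In GF intestine, with globin sums above CV, the same cpox, alad and urod were fully below CV and the other 7 genes overlapped. Of 4 thrombocyte genes none passed, but 3 had a negative log2 difference and the list median was -0.81. Their sums, which are mostly the coagulation gene f5, overlapped (141 to 182 CPM in mutants, 143 to 190 CPM in CV), as did those of 4 neutrophil and macrophage genes (39.9 to 46.0 and 28.0 to 46.3 CPM). The part of red cell content in the differences of the 10 genes was not tested. These ratios cannot tell fewer red cells from less globin RNA per cell.

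**Figure D3:**
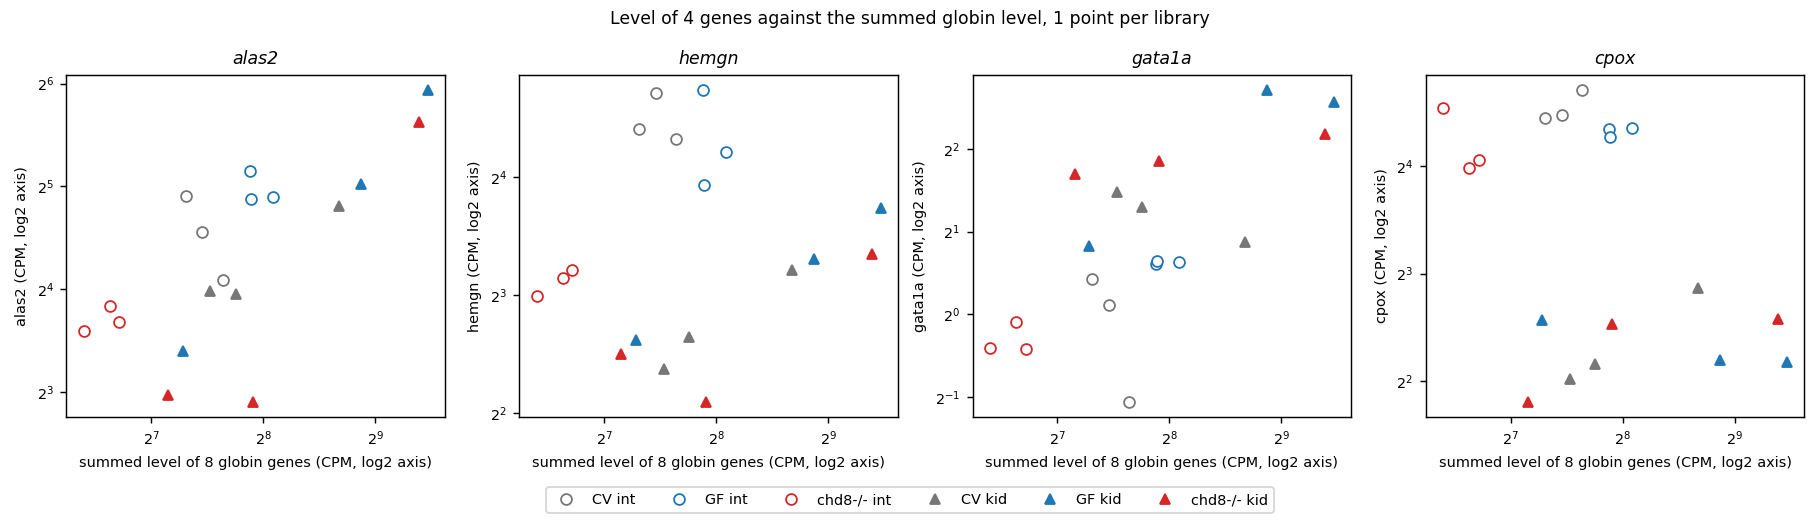
Level of alas2, hemgn, gata1a and cpox against the summed level of 8 globin genes, both in CPM on log2 axes, 1 point for each of the 18 libraries (circles intestine, triangles kidney). The chd8-/- intestines lie at the low end of the globin axis (84.2 to 105 CPM), and the kidneys richest in globins, up to 709 CPM, also have the most alas2.

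In the GF intestine, compared with CV intestine, the 10 genes were without a call. None of the 10 passed in edgeR or DESeq2, and none had an unadjusted p under 0.05, a level that 5.96% of all 20954 genes reached. Among all genes edgeR called 0% and DESeq2 0.167%. The log2 differences ran from -0.21 to 0.68, with 6 positive and 4 negative and a median of 0.05. The largest was that of gata1a, at 1.53, 1.55 and 1.57 CPM in GF intestine, above the 0.481, 1.34 and 1.08 CPM of CV intestine (0.68, SE 0.46, edgeR adjusted p = 0.823). These GF values rest on 58, 48 and 56 counts, too few to read their near equality as a result. CV replicate 1 held 14 counts, and without it the log2 difference was 0.36. With all libraries, gata1a was the 1 gene of 10 with all GF above all CV libraries, where 5.1% of all genes were so. The 1 gene with all GF below all CV libraries was cpox, at 20.2, 20.5 and 19.3 CPM against 26.1, 21.7 and 22.2 CPM (-0.21, SE 0.15), where 6.02% of all genes were so. For alas2, GF intestines held 35.5, 29.7 and 29.4 CPM, and CV replicate 2, at 29.9 CPM, lay among them (0.43, SE 0.22, edgeR adjusted p = 0.803). All 5 globin genes tested had a positive log2 difference (median 0.49) and none passed, and the other lists held no called gene.

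In the GF kidney the picture depended on single libraries. With all 6 libraries edgeR called 0% of 21120 genes and none of the 10, although 8 of 10 had a log2 difference above 0, with a median of 0.50 where that of all genes was 0.01 and 51.4% of all genes were above 0. Unadjusted p-values were under 0.05 for tfr1a and alad, that is for 2 of 10 genes, and for 8.79% of all genes.

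The transferrin receptor gene tfr1a had the largest difference. It stood at 17.8, 11.4 and 11.1 CPM in GF kidney and at 5.01, 4.85 and 6.84 CPM in CV kidney. Every GF library was well above every CV library, including the GF library whose CHD8 level was in the chd8-/- range. The log2 difference was 1.27 (SE 0.27), with an edgeR adjusted p of 0.516 and a DESeq2 adjusted p of 0.0114, and DESeq2 called 0.331% of all genes as higher. The same full separation was seen for alad (8.15, 9.56 and 7.99 CPM against 6.13, 5.80 and 5.57 CPM, log2 difference 0.54, SE 0.20) and for slc25a37 (7.22, 5.30 and 5.42 CPM against 4.30, 4.00 and 4.33 CPM, 0.50, SE 0.25). Thus 3 of 10 genes were fully above CV, where 7.4% of all genes were. In the other direction fech stood at 12.6, 9.76 and 12.6 CPM against 15.8, 13.0 and 14.2 CPM (-0.31, SE 0.20), the 1 gene of 10 fully below, where 7.87% of all genes were.

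For alas2, gata1a and hemgn the GF kidneys were widely spread. For alas2 the GF kidneys held 61.3, 10.6 and 32.5 CPM and the CV kidneys 28.0, 15.5 and 15.8 CPM, so replicate 2 lay below all CV kidneys while the other two lay above them (log2 difference 0.82, SE 0.58, edgeR adjusted p = 0.686). For gata1a the GF values were 5.92, 1.77 and 6.55 CPM and the CV values 1.83, 2.46 and 2.78 CPM, with the same replicate lowest (1.02, SE 0.49, edgeR adjusted p = 0.586). For hemgn they were 13.3, 6.15 and 9.89 CPM and 9.25, 6.24 and 5.19 CPM (0.50, SE 0.35). The receptor epor (0.39), urod (0.16) and cpox (-0.09) overlapped as well. GF replicate 2 and CV replicate 1, which stand apart by CHD8 and by myeloid genes, were picked by values of these same data. GF replicate 2 was also the lowest GF kidney for alas2, gata1a and hemgn. CV replicate 1 was the highest CV kidney for alas2 and hemgn. Without this pair edgeR called 3 of the 10 genes as higher and 2.48% of all genes as higher. The 3 were gata1a (1.27, SE 0.28, edgeR adjusted p = 0.0255), hemgn (1.05, SE 0.23, 0.0248) and tfr1a (1.33, SE 0.27, 0.0173), while alas2 had the largest difference of the 10 but did not pass (1.60, SE 0.32, 0.0675). Leaving out this pair also moves the globin sums, since it removes the GF kidney with the least globin (156 CPM) and the CV kidney with the most (409 CPM) and leaves 709 and 469 CPM in GF against 216 and 185 CPM in CV. The libraries left also differ in genes of other tissues. Summed exocrine pancreas genes were at 19452 and 15377 CPM in GF against 31612 and 33497 CPM in CV. Summed brain and retina genes were at 75.0 and 40.5 CPM in GF against 13.6 and 14.5 CPM in CV. By smaller steps, blood stem cell genes (175 and 172 against 161 and 155 CPM) were fully higher in GF. So were neutrophil and macrophage genes (114 and 102 against 93.3 and 83.6 CPM) and kidney genes (391 and 362 against 290 and 355 CPM). Thrombocyte and muscle sums were fully lower in GF, while the enterocyte and liver sums overlapped. The part of these shifts in the calls was not tested. Leaving out any 1 library alone called none of the 10. Without GF replicate 1 the log2 differences shrank to 0.11 for alas2, 0.20 for hemgn, 0.15 for epor and 0.32 for slc25a37. Those of gata1a, tfr1a and alad were then 0.82, 0.99 and 0.56. Among the lists, in the fit of all 6 libraries, all 10 red cell membrane and enzyme genes had a positive difference (median 0.50). In that fit the 5 globin genes had a median of 0.68. The 20 other erythroid transcription and signalling genes had a median of 0.01, and none of the genes of these lists passed in that fit.

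**Figure D4:**
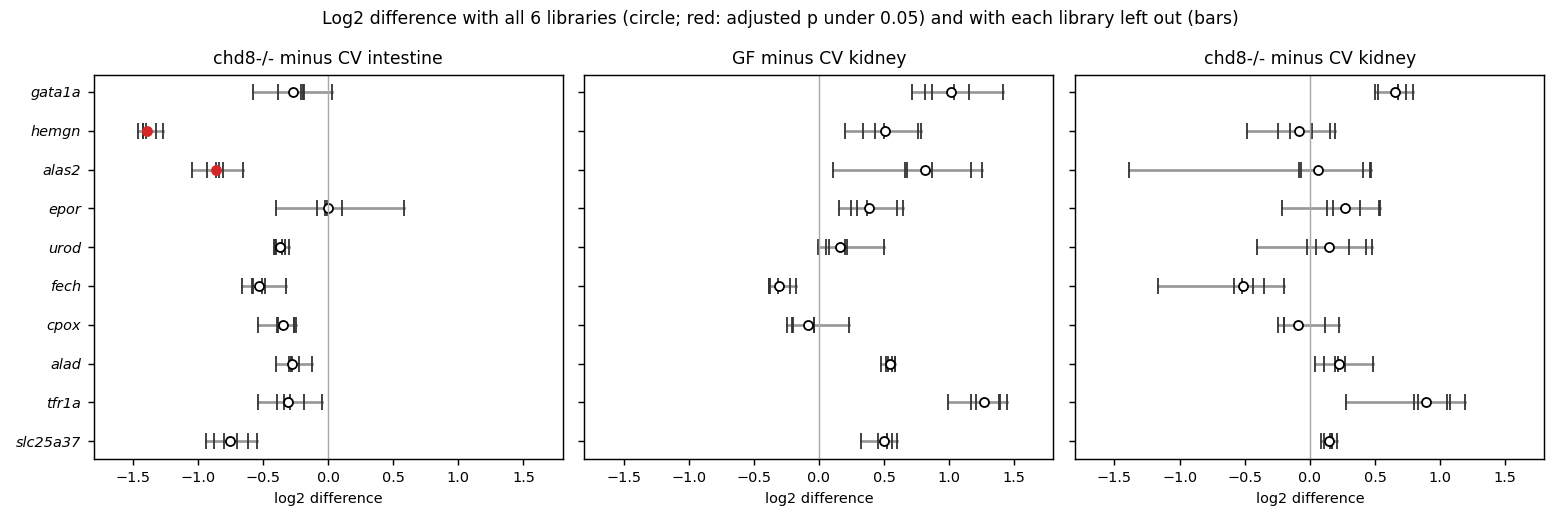
Log2 difference of each of the 10 genes with all 6 libraries (circle, red where the edgeR adjusted p was under 0.05) and with each library left out in turn (bars) in 3 comparisons. In the chd8-/- intestine hemgn stayed between -1.46 and -1.26, whereas in the chd8-/- kidney alas2 ran from -1.38 to 0.47.

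In the chd8-/- kidney, compared with the same CV libraries as the GF kidney, none of the 10 genes passed in edgeR or DESeq2. Among all 21060 genes edgeR called 0% and DESeq2 1.16%, and at an unadjusted p under 0.05 there were 9% of all genes and none of the 10. The log2 differences were positive for 7 genes and negative for 3 (median 0.15). The largest was tfr1a, at 18.4, 7.97 and 5.66 CPM against the CV values of 5.01, 4.85 and 6.84 CPM (0.89, SE 0.42, edgeR adjusted p = 0.582). Its replicate 1 stood far above the others, and replicate 3 within the CV range. The 1 gene with every mutant above every CV library was gata1a, at 4.52, 3.24 and 3.62 CPM against 1.83, 2.46 and 2.78 CPM (0.65, SE 0.31, edgeR adjusted p = 0.589), where 8.1% of all genes were so. Genes of other tissues differed between the same libraries. The 4 enterocyte genes summed to 259 to 447 CPM in chd8-/- kidney and 86.1 to 205 CPM in CV kidney, and the 6 liver genes to 5110 to 7815 CPM and 2717 to 4907 CPM, both without overlap. The part of these tissues in the values of the 10 genes was not tested.

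Replicate 1 of the chd8-/- kidney decided several of these values. Its CHD8 level, 30.2 CPM, was the lowest of the kidneys, while its level of the globin gene hbae1.1 was the highest of all libraries. The other chd8-/- libraries and GF kidney replicate 2 were low in hbae1.1 (values under Other observations). Whether libraries were exchanged was not tested. This mutant replicate 1 was the highest of the 9 kidneys for 4 of the 10 genes and among the 3 highest for 9 of them. Its globin sum was 670 CPM against 142 and 241 CPM in the other 2 mutant kidneys. For alas2 it held 49.5 CPM and the others 7.83 and 7.49 CPM, below the 28.0, 15.5 and 15.8 CPM of CV (log2 difference 0.07, SE 0.72). For fech it held 18.2 CPM and the others 7.70 and 5.19 CPM, below the 15.8, 13.0 and 14.2 CPM of CV (-0.52, SE 0.41). Without that library the log2 difference was -1.38 for alas2 (edgeR adjusted p = 0.114) and -1.17 for fech (0.107). Without it and CV replicate 1, a pair chosen after seeing the data, edgeR called alas2 (-1.04, SE 0.20, 0.00634) and fech (-1.09, SE 0.25, 0.0147), 2 of the 10 genes, and 5.19% of all genes as lower. Of the other 8 genes in that fit, hemgn (-0.21), epor (-0.35) and urod (-0.08) were negative, and gata1a (0.37), slc25a37 (0.23), tfr1a (0.21), cpox (0.11) and alad (0.08) were positive.

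Whether the response differed between tissues was tested on the same fit of all 18 libraries. For the chd8-/- response, kidney minus intestine, all 10 values were above 0, as were 52.7% of all 22826 genes, but none of the 10 was called, beside 0.127% of all genes by edgeR and 1.2% by DESeq2. At an unadjusted p under 0.05 there were 3 of the 10 and 9.98% of all genes: hemgn (1.34, SE 0.45, edgeR adjusted p = 0.318), slc25a37 (0.91, SE 0.34, 0.348) and tfr1a (1.23, SE 0.50, 0.416). The fall of hemgn and alas2 in the mutant intestine is thus not shown to differ from the kidney (the difference between the alas2 responses was 0.97, SE 0.91). For the GF response none of the 10 was called, beside 0.00438% of all genes by edgeR and 0.105% by DESeq2, and at an unadjusted p under 0.05 there were 1 of the 10, tfr1a (1.22, SE 0.50, edgeR adjusted p = 0.76), and 6.41% of all genes.

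**Figure D5:**
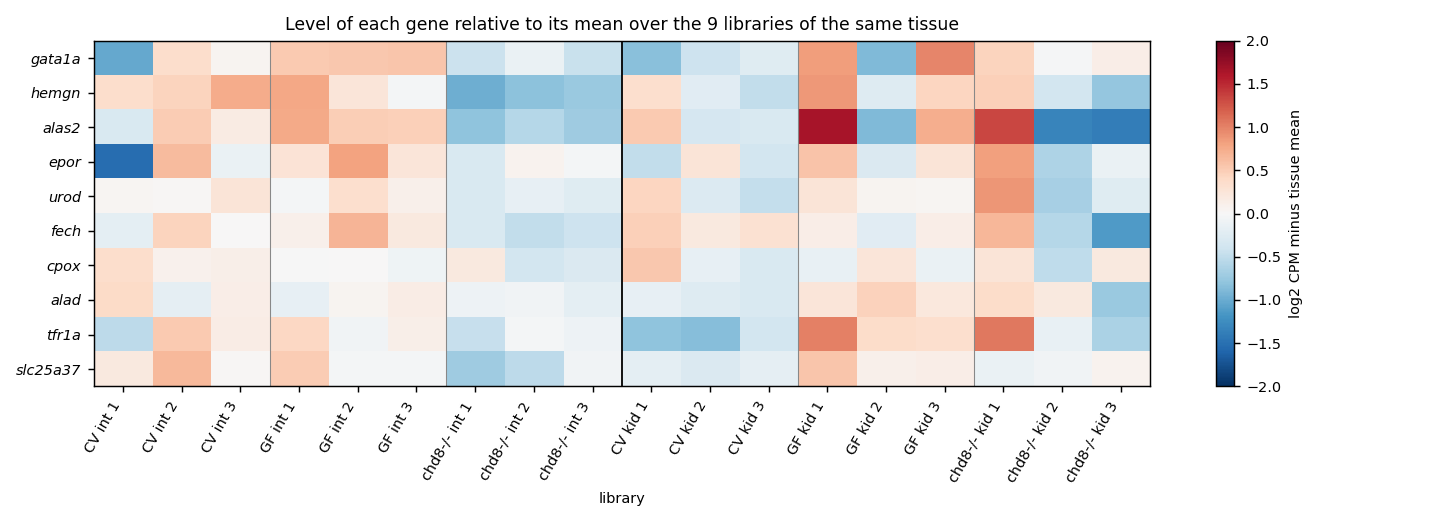
Level of each of the 10 genes (rows) in each of the 18 libraries (columns) as log2 CPM minus the mean of the 9 libraries of its tissue, red above and blue below that mean. The chd8-/- intestines are below it for hemgn and alas2, and among kidneys GF replicate 1 and chd8-/- replicate 1 are above it for most genes.

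Across single libraries, the 10 genes did not all rank the libraries in the same order. In the kidney the 4 libraries richest in globins (GF replicates 1 and 3, chd8-/- replicate 1 and CV replicate 1, 409 to 709 CPM) were also the 4 highest for alas2, at 28.0 CPM or more against 15.8 CPM or less in the other 5, and for hemgn, at 9.25 CPM or more against 6.24 CPM or less. For gata1a, epor, urod, alad and tfr1a, 3 of the 4 highest kidneys were among these 4, and for cpox, fech and slc25a37, 2 were. In the intestine, the 4 highest libraries of a gene shared from 1 (cpox) to 3 (such as alas2) with the 4 richest in globins. How many of all genes share as many libraries with the globins was not computed, so these counts set none of the 10 genes apart. Per 100 CPM of globin the kidneys held 3.11 to 8.64 CPM of alas2 and 1.52 to 3.98 CPM of hemgn, and the GF, CV and chd8-/- ranges overlapped.

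The likeness of other genes to alas2 and gata1a was measured as the root mean square difference of log2 CPM, centred within each tissue, over 18 libraries and 21417 genes, as a description. The 5 nearest to alas2, whose own SD on that scale was 0.84, were the globin gene hbae1.2 (0.302), cahz (0.337), hbae3 (0.383), epb41b (0.386) and CLSTN2 (0.400). Of the other 9 genes the nearest to alas2 was hemgn, in place 28 (0.494), followed by fech in place 96 (0.562), while cpox was in place 5316. The 5 nearest to gata1a (SD 0.58) were GARNL3 (0.336), NGFR (0.344), FN1 (0.346), CDH11 (0.373) and ADGRL2 (0.374), and of the other 9 genes the nearest was epor, in place 27 (0.401). With 14 to 196 counts per library, the pattern of gata1a carries more counting error than that of alas2.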

How the data were processed

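The values used are whole-number counts of reads per gene that the authors deposited in 4 tables of 32520 genes, each pairing CV with GF or chd8-/- libraries of 1 tissue, and 0 columns of no sample were used. FastQC 0.11.9, Trim Galore 0.6.7, STAR 2.7.9a, Subread 2.0.1 and featureCounts were used on GRCz11, per the submitters' processing notes. Not given in the sources used here are the annotation release, the strandedness and the handling of multimapped reads, so values of overlapping genes and near-identical copies are uncertain. The CV intestine columns of both intestine tables are the same libraries under other numbers, with counts that differ slightly (by 0.228%, 0.0745% and 0.0774% of the total count). They are named here by the numbering of the germ-free table. The CV kidney columns were identical. Replicates differed by far more than sampling noise (the lowest chi-square per degree of freedom was 16.5, on genes with at least 20 counts).

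A symbol was found for 29201 identifiers in a gene name table. No reference of the authors' build and no sequences were given, so none are printed. The 10 genes and all lists were chosen with earlier results of these data known. All 10 are named in every comparison, and of other lists at most 4 called genes with the smallest adjusted p, of which 1 is not reported here. The 5 genes nearest to alas2 and to gata1a were named by their root mean square difference in log2 CPM (prior count 2). Each comparison within a tissue was fitted with edgeR 4.0.16 in R 4.3.3 (TMM, filterByExpr, robust quasi-likelihood F-test, no block) on the 6 libraries of its table. The tissue comparison and its differences of responses used 1 fit of 18 libraries. P-values were adjusted over all genes by Benjamini-Hochberg and called under 0.05, and SE is the log2 difference divided by the square root of F. Alternatives were DESeq2 1.42.0, limma 3.58.1 voom, other scalings and filters, a replicate block, all 9 libraries of a tissue, the other CV columns, and fits without single or paired libraries. Beside the tests, CPM were computed from these counts, and counts limit precision most for gata1a and epor.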

Additional observations from a re-analysis of the deposited data

How the results depend on the processing

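Counts of members called were the same as in the report under all settings except these. In GF kidney DESeq2 called 1 of the 10 genes. The fit without CV kidney replicate 1 and GF kidney replicate 2, a pair picked by values of these data, called 3. In chd8-/- kidney the fit without CV replicate 1 and chd8-/- replicate 1, chosen after seeing the data, called 2. In chd8-/- intestine DESeq2 called 3 against 2. For the tissues of CV fish 7 were called against 8 with library size alone and without the 3 libraries that stand apart. With each library left out in turn the counts ran from 1 to 2 in chd8-/- intestine and from 5 to 8 between the tissues, and were 0 in the other 5 comparisons. Same-numbered libraries did not deviate together (15 pairs, correlations from -0.157 to 0.0902), so the numbers were not taken as pairs. The replicate block changed no call of the 10 genes and gave 1344 called genes in chd8-/- intestine against 1903.

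Directions turned outside the leave-one-out fits as follows. The epor difference in chd8-/- intestine, near 0 in the main setting, was 0.0014 with DESeq2, with RLE factors and without a filter, 0.0057 with all 9 libraries, 0.23 with voom and 0.19 with the replicate block. The alas2 difference in chd8-/- kidney was -0.44 with voom, -0.46 with the replicate block and -1.04 without the pair named above, where epor was -0.35, urod -0.085 and cpox 0.11. In GF kidney cpox was 0.11 without its pair. For the alas2 value in chd8-/- kidney, chd8-/- replicate 1 is the library that decides, and for the rest the cause was not tested. With 1 library left out, the following log2 differences took both signs. In GF intestine alad ran from -0.23 to 0.033, hemgn from -0.40 to 0.0058, slc25a37 from -0.34 to 0.074, tfr1a from -0.18 to 0.33 and urod from -0.065 to 0.13. In GF kidney cpox ran from -0.25 to 0.23 and urod from -0.0095 to 0.50. In chd8-/- intestine epor ran from -0.40 to 0.58 and gata1a from -0.58 to 0.032. In chd8-/- kidney alas2 ran from -1.38 to 0.47, cpox from -0.24 to 0.22, epor from -0.21 to 0.54, hemgn from -0.48 to 0.20 and urod from -0.41 to 0.48. In the difference of the GF responses alas2 ran from -0.30 to 0.82, cpox from -0.0061 to 0.46, epor from -0.78 to 0.21 and urod from -0.028 to 0.47. In that of the chd8-/- responses alas2 ran from -0.52 to 1.38, epor from -0.28 to 0.70, fech from -0.64 to 0.37 and urod from -0.041 to 0.87.

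Counts of all called genes moved more. In chd8-/- intestine they ran from 741 to 3069 with 1 library left out. DESeq2 called 35 genes in GF intestine, 176 in GF kidney and 245 in chd8-/- kidney, where edgeR called none. For the differences of the GF and chd8-/- responses DESeq2 called 24 and 274 against 1 and 29, and leave-one-out fits called 0 to 3 and 8 to 70. The fits without the pairs named above called 944 genes in GF kidney and 2178 in chd8-/- kidney, and leave-one-out fits called up to 139 in the latter. Settings of scale, filter and library choice called 3 genes in GF intestine and at most 4 in either kidney comparison. Library size alone moved the median of all genes to -0.14 in chd8-/- intestine and to -0.10 between the tissues, and the higher share of calls in chd8-/- intestine to 577 of 2132 against 826 of 1903. For the difference of the chd8-/- responses it gave 27 higher of 44 against 11 of 29, and the fit without the 3 libraries that stand apart called 110. The low counts of gata1a and epor, from 14 per library, limit what these data resolve for them.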

Other observations

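The embryonic globin gene hbae1.1 was low in a set of libraries that crosses the groups. It stood at 0.567, 0.212 and 0.408 CPM in chd8-/- intestine, at 0.422 CPM in the library labelled GF kidney replicate 2, and at 0.203 and 0.512 CPM in chd8-/- kidney replicates 2 and 3. In all other libraries it stood between 3.80 and 15.8 CPM, and chd8-/- kidney replicate 1 held the highest value, 15.8 CPM. The related copy hbae1.2 was lowest in the same 3 kidneys, by a smaller step, with 5.91 CPM in GF kidney replicate 2 and 4.15 and 5.23 CPM in chd8-/- kidney replicates 2 and 3, against 7.19 to 35.3 CPM in the other kidneys. Reads can be shared or lost between these copies, which was not tested.

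The globin gene hbae5 stood at 21.6 CPM in CV kidney replicate 1 and at 0 to 3.30 CPM in the other 17 libraries.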
